A study of Mus musculus with 4 samples.

Results

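The 10 genes described here encode transcription factors and a chromatin reader of blood stem cells: Hlf, Meis1, Mecom, Mllt3, Gata2, Tal1, Erg, Runx1, Gfi1 and Etv6. They were chosen by gene symbol, and all 10 were found among the 19938 genes named by the platform annotation. A gene was read from probe sets with 1 symbol, taking the one with the highest mean of the 4 arrays. RNA came from bone marrow cells sorted as LSK (without lineage markers, with c-Kit and Sca-1), which the labels call haematopoietic stem cells (HSCs). Early multipotent progenitors also fall in that gate. The mice were C57BL/6, 8 weeks old, and either wild type (WT) or labelled Hif1a-/-, with 2 arrays per genotype numbered 1 and 2 as biological replicates. How Hif1a was deleted, in which cells, and how many mice gave each RNA are not given in the sources used here. Nor is what arrays of the same number share. Hif1a encodes the oxygen-regulated subunit of HIF-1, and the study asked how HSCs differ without it.

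Stem cell identity in the blood is held by a small network of such factors. GATA2, TAL1, ERG and RUNX1 bind enhancers together, with FLI1, LYL1 and LMO2, and maintain each other's genes. HLF, MEIS1 and MECOM mark the most immature cells and fall with differentiation, and MEIS1 has been described as an activator of Hif1a in HSCs. MLLT3 reads acetylated histones and supports stem cell renewal, GFI1 represses genes of other fates, and ETV6 is a repressor of the ETS family needed by adult HSCs.

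Arrays differed more by replicate number than by genotype, so each gene is given by both labels. The deposited values are log2 signals, on which 1 unit is a doubling, and medians over all probe sets lay between 8.19 and 8.35. Kit, which encodes the c-Kit of the gate, had 12.57 and 12.37 in the arrays numbered 1 and 11.51 and 11.32 in those numbered 2 (WT first). Sca-1 (Ly6a) was not analysed here. Genes listed as markers of myeloid cells were measured in all arrays and were higher in those numbered 2. A lineage-negative gate should remove mature myeloid cells. The neutrophil list was not limited to genes of mature cells, and which of its genes passed by number is given below. The 12 neutrophil genes had mean log2 signals of 10.75 and 10.49 in the arrays numbered 1 and 12.08 and 12.67 in those numbered 2. For Hif1a itself, the log2 difference between genotypes was −0.08 (SE 0.24), and a probe set can lie outside a deleted part, so this does not check the labels. Each direction between genotypes therefore follows the labels.

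Several of the 10 genes were much lower in the arrays numbered 2, in both genotypes, while no difference between genotypes passed the test. Hlf, Meis1, Mecom, Erg and Etv6 fell by number, with adjusted p under 0.05 in limma over all genes, and 0 of the 10 rose. Over all genes, 2.93% were called lower in number 2 by the same rule, and 6.74% in either direction. With an array left out, the median number difference over the 10 genes ran from −0.76 to −0.56 log2 units. Fewer of the 10 genes passed without an array numbered 1 and more without an array numbered 2, and the same held over all genes. Counts of calls with an array left out in the lists below share that shift and are not read as particular to a list. For 8 of the 10 genes both arrays numbered 2 lay below both numbered 1, which held for 27.2% of all genes. For 0 of the 10 both lay above, as for 20.4% of all genes. The median difference over the 10 genes was −0.64 log2 units (−0.70 among WT arrays, −0.69 among those labelled Hif1a-/-), beside −0.02 over all genes. The array labelled Hif1a-/- with number 2 was the lowest for 7 of the 10 genes, and WT array 1 was the highest for 7. In bulk RNA, fewer cells of a type and less RNA per cell cannot be told apart. The tests measure only the spread between these few arrays.

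**Figure D1:**
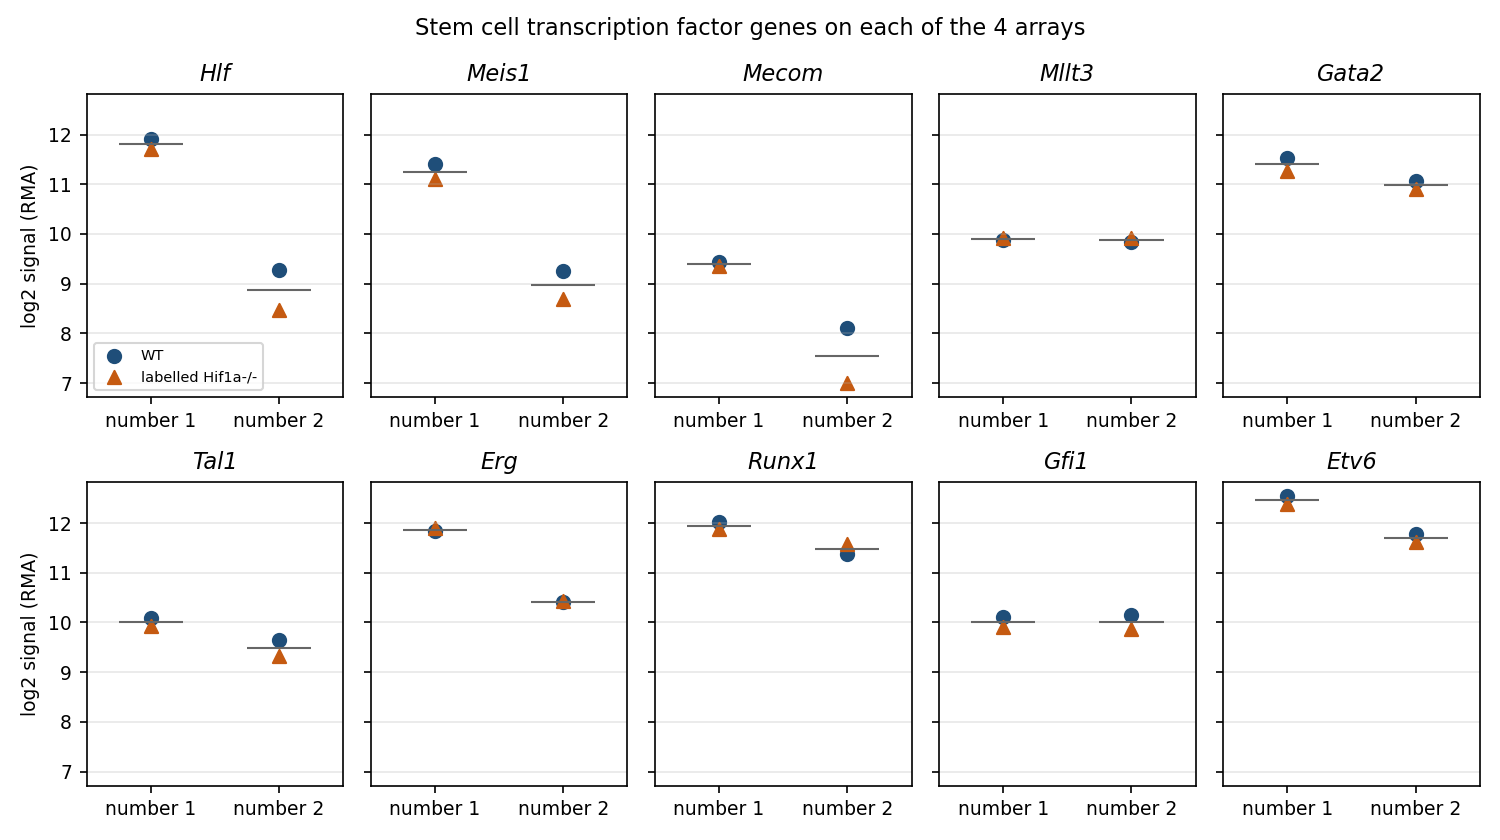
Log2 signal (vertical axis) of each gene on the 4 arrays, by replicate number (horizontal axis), with WT as circles, Hif1a-/- as triangles and grey bars for the mean of each number (n = 2). Hlf, Meis1, Mecom and Erg drop from number 1 to number 2 in both genotypes, whereas Mllt3 and Gfi1 stay at a similar level.

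Hlf, a PAR-type bZIP factor found in the most immature stem cells, showed the widest range of the 10 genes. Its log2 signal was 11.91 in WT array 1, 9.27 in WT array 2, 11.72 in array 1 labelled Hif1a-/- and 8.46 in array 2 labelled Hif1a-/-. Both arrays numbered 2 were thus far below both numbered 1, and the range over the 4 arrays was 3.45. The number difference was −2.95 (SE 0.27, limma adjusted p = 0.00498), a signal 7.71-fold lower in number 2 (95% interval 4.87 to 12.2). It was 6.23-fold among WT arrays and 9.54-fold among the arrays labelled Hif1a-/-. Number accounted for 96.1% of the sum of squares of Hlf over the 4 arrays and genotype for 2.82%.

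Meis1, a TALE homeodomain factor that binds DNA with PBX and HOX proteins, followed the same order. The WT arrays 1 and 2 gave log2 signals of 11.40 and 9.26, and the Hif1a-/- arrays 1 and 2 gave 11.11 and 8.68. The arrays of different number again did not overlap, and Meis1 fell by 2.28 (SE 0.22, limma adjusted p = 0.00574), or 4.87-fold (95% interval 3.35 to 7.09). Of its spread, 96.1% went with number and 3.48% with genotype.

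Mecom, whose locus encodes the zinc finger factor EVI1 and a longer form with a PR domain, had number differences that, in the probe set used, were farthest apart between the genotypes. The WT arrays 1 and 2 gave log2 signals of 9.43 and 8.11, and the Hif1a-/- arrays 1 and 2 gave 9.36 and 6.99. The arrays numbered 1 nearly coincided, while those numbered 2 were apart from each other. The number difference was −1.85 (SE 0.35, limma adjusted p = 0.0375), −1.32 among WT arrays and −2.37 among those labelled Hif1a-/-. In Hif1a-/- array 2 only 16.1% of genes on the array had a lower signal than Mecom, and no detection call was used, so the size of that difference is uncertain. This call was lost when WT array 1 was dropped (adjusted p = 0.116 in limma), when Hif1a-/- array 1 was (0.0860) and under cyclic loess (0.0545). Mecom alone of the 10 genes had a further probe set, annotated to a partly different set of transcripts. Its log2 signals were 7.94 and 7.23 for WT arrays 1 and 2, then 7.80 and 7.13 for Hif1a-/- arrays 1 and 2. In a fit over every probe set with 1 symbol, that probe set was 1.62-fold lower in number 2 (−0.69, SE 0.12, limma adjusted p = 0.0290). It differed by −0.71 among WT arrays and by −0.67 among those labelled Hif1a-/-, so the gap between genotypes was present in the probe set used and not in the further one. All 4 signals of the further probe set lay below the medians over all probe sets (8.19 to 8.35), so the size of its differences is uncertain too.

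Erg, an ETS factor of the shared enhancer network, fell by nearly the same amount in both genotypes. Its log2 signal was 11.83 and 11.90 in the arrays numbered 1 (WT first) and 10.41 and 10.42 in those numbered 2. The number difference was −1.45 (SE 0.11, limma adjusted p = 0.00381), or 2.73-fold, and number held 99.9% of the spread. The genotype difference was 0.06 for number 1 and 0.01 for number 2.

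Gata2, Tal1 and Runx1, the other members of that network, had smaller differences that did not pass over all genes. Gata2, a zinc finger factor of stem cells and also of mast cells, had 11.53 and 11.26 in the arrays numbered 1 and 11.06 and 10.91 in those numbered 2 (−0.42, SE 0.14, limma adjusted p = 0.176). Tal1, the basic helix-loop-helix member, had 10.08 and 9.93 in number 1 and 9.64 and 9.33 in number 2 (−0.52, SE 0.15, limma adjusted p = 0.116). Runx1, the DNA-binding subunit of core binding factor, had 12.01 and 11.88 in number 1 and 11.38 and 11.59 in number 2 (−0.46, SE 0.13, limma adjusted p = 0.111). In all 3 genes the arrays of different number did not overlap, and the 95% intervals ran from −0.76 to −0.07 for Gata2, −0.89 to −0.15 for Tal1 and −0.79 to −0.14 for Runx1. Gata2 and Tal1 passed without WT array 2 (adjusted p = 0.0195 and 0.00159 in limma) and Runx1 without Hif1a-/- array 2 (0.00527).

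Etv6 fell moderately, with almost the same size in either genotype. Its log2 signal was 12.55 and 12.39 in the arrays numbered 1 (WT first) and 11.79 and 11.62 in those numbered 2. The number difference was −0.77 (SE 0.13, limma adjusted p = 0.0259), or 1.70-fold in WT arrays and 1.71-fold in the others. Dropping WT array 1 ended the call (adjusted p = 0.273 in limma), as did dropping Hif1a-/- array 1 (0.131).

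Mllt3 and Gfi1 were at a similar level in all 4 arrays. Mllt3, the acetyl-lysine reader of the super elongation complex, lay between 9.84 and 9.92 in every array. Its number difference was −0.02 log2 units, with a 95% interval of −0.30 to 0.25. Gfi1, a zinc finger repressor that restrains stem cell proliferation, gave 10.10 and 10.16 for WT arrays 1 and 2, then 9.90 and 9.86 for Hif1a-/- arrays 1 and 2, a number difference of 0.01 (95% interval −0.36 to 0.38). The lower ends of both intervals lie above the upper ends of those of Hlf, Meis1, Mecom, Erg and Etv6.

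**Figure D2:**
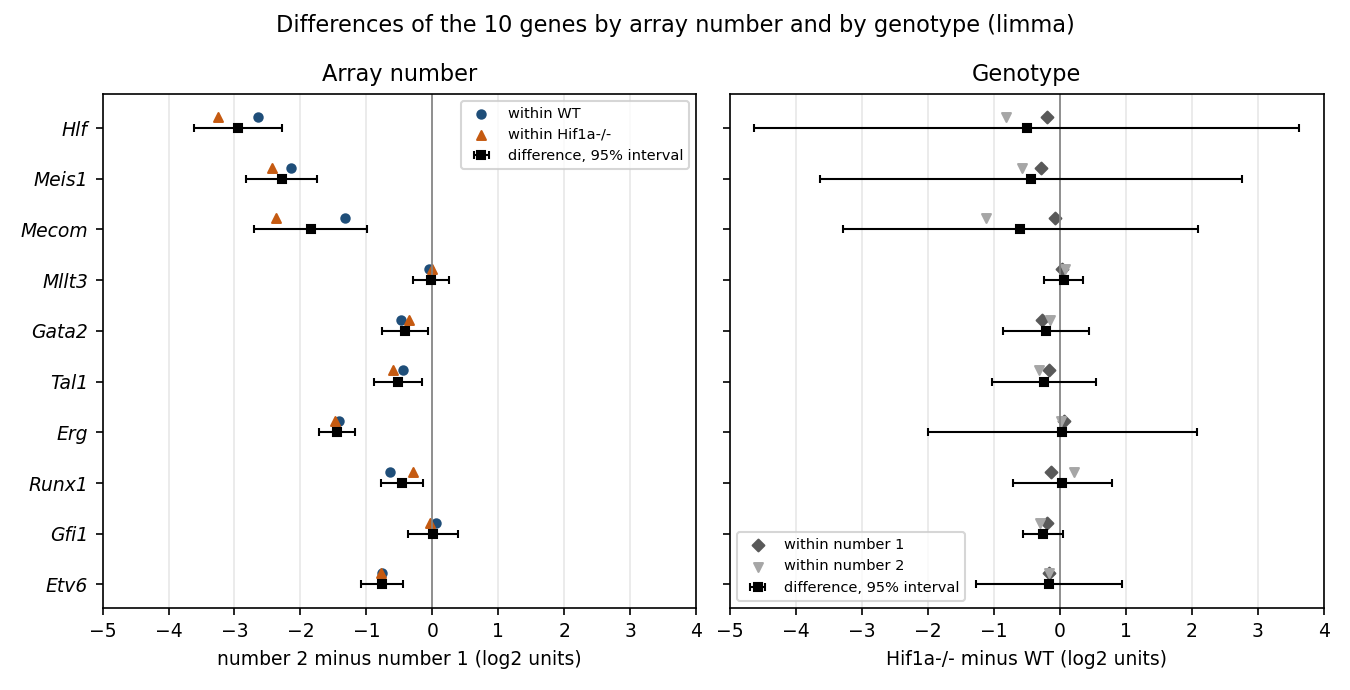
Log2 difference of each gene between array numbers (left, number 2 minus number 1) and between genotypes (right, Hif1a-/- minus WT), with squares and bars for limma's estimate and 95% interval over 4 arrays, and points for the difference within each genotype or number. Intervals by number exclude 0 for 8 genes, and all 10 intervals by genotype include 0. By the same criterion, limma's unadjusted p under 0.05, 3887 of all 19938 genes differed by number and 145 by genotype.

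Between the genotypes, none of the 10 genes passed, and 0% of all genes did in limma. The adjusted p was 0.9998 for each of the 10, and 0 of them had an unadjusted p under 0.05, beside 0.727% of all genes. In the mean 7 genes were lower in the arrays labelled Hif1a-/- (9843 of all 19938 genes were) and 3 higher. The median difference was −0.22 log2 units. It was −0.16 in number 1 and −0.24 in number 2, beside 0.02 and 0.01 over all genes. Because the numbers lay so far apart, the intervals of the genes that fell by number were wide: for Hlf the genotype difference was −0.50, with a 95% interval of −4.64 to 3.63. Absence of a call therefore does not show equal levels. Leaving out a single array turned the median from −0.22 to 0.15 (without WT array 1) or 0.20 (without Hif1a-/- array 2), since the genotypes then hold different numbers. It became −0.50 without WT array 2 and −0.54 without Hif1a-/- array 1.

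Within both numbers, the arrays labelled Hif1a-/- were lower for all 3 immature-cell factors, and also for Gata2, Tal1, Gfi1 and Etv6. The share of all genes lower within both numbers was not computed, so this is not read as particular to these genes. For Mecom the difference was −0.07 between the arrays numbered 1 and −1.12 between those numbered 2, for Hlf −0.20 and −0.81, and for Meis1 −0.29 and −0.58. The further probe set of Mecom gave −0.13 and −0.10, and averaging both probe sets took the overall genotype difference of Mecom from −0.60 to −0.36. These values compare single arrays, have no replicate check, and their difference between numbers was not tested. In the same arrays the neutrophil genes had a median genotype difference of −0.22 in number 1 and 0.78 in number 2, and their part in the result was not tested. Gata2 differed by −0.27 and −0.15, Tal1 by −0.16 and −0.31, Gfi1 by −0.20 and −0.30, and Etv6 by −0.16 and −0.17.

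Gfi1 and Mllt3 were the only members whose genotype groups did not overlap. Gfi1 was 0.25 log2 units lower in the mean in the arrays labelled Hif1a-/- (SE 0.11, 95% interval −0.55 to 0.05), a mean of 10.13 ± 0.04 in WT against 9.88 ± 0.03 (SD, n = 2). The difference shrank to −0.17 under quantile normalization and to −0.16 under cyclic loess. For 8.33% of all genes both arrays labelled Hif1a-/- lay below both WT arrays. Mllt3 was 0.06 higher (SE 0.11), and for 16.1% of all genes both lay above. Genotype held 95.9% of the spread of Gfi1, whose range over the 4 arrays was 0.30.

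Promoter sequences from RefSeq (build GRCm38.p6) are shown for the genes that fell by number and have a single listed start, Hlf, Meis1 and Etv6, and for both starts of Mecom, whose probe sets differ. Each runs 5′ to 3′ on the gene's strand over the 250 bases before the start. Capitals mark the core of the HIF binding site, ACGTG or GCGTG on either strand, where the palindrome CACGTG counts as 2 matches.
Hlf: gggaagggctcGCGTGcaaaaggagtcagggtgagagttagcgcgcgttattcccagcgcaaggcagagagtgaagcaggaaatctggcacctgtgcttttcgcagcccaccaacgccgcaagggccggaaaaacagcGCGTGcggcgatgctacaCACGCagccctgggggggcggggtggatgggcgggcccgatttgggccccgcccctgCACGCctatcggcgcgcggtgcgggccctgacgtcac
Meis1: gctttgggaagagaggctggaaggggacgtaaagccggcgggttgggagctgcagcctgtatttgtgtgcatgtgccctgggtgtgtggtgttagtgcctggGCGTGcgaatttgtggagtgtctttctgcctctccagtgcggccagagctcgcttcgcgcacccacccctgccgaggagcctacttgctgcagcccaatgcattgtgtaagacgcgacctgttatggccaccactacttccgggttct
Etv6: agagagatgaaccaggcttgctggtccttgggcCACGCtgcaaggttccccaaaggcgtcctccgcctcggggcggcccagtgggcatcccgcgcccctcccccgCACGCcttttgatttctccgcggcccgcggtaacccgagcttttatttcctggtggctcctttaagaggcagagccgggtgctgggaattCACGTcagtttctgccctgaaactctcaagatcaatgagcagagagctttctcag
Mecom, upstream start: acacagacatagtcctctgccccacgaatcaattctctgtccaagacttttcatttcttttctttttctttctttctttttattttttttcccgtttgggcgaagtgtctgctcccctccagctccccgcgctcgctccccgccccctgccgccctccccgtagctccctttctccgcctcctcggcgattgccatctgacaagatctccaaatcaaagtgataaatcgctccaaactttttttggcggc
Mecom, downstream start: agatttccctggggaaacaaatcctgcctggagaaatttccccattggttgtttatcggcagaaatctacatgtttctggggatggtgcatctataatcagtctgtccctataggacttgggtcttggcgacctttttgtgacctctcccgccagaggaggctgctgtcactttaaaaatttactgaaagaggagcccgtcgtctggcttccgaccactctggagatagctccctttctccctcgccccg
The windows are chr11:90390918-90391167 (minus strand) for Hlf, chr11:19018970-19019219 (minus) for Meis1, chr6:134035450-134035699 (plus) for Etv6, and chr3:30509760-30510009 and chr3:30013205-30013454 (minus) for Mecom. The HIF core occurred 4 times before Hlf, 3 times before Etv6 and 1 time before Meis1, and 0 times before either start of Mecom.

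The share of windows with the HIF core was set beside that over all genes, with no test. All 10 genes were matched, with 18 listed starts, and 8 of the 18 windows (44.4%) held the HIF core, beside 38.6% of 32851 windows of the same length over all genes. A GATA match (AGATAA or TGATAA) was present in 16.7% of the 18 windows and 16.6% of all windows. The ETS letters AGGAAG were in 16.7% against 29.5%, and the RUNX letters TGTGGT in 5.56% against 14%, the only such window being that of Meis1. An E-box of the kind TAL1 binds (CAGATG) was in 11.1% against 14.4%, and the MEIS letters TGACAG in 16.7% against 15.9%. All were searched on both strands. Windows of the same gene are not independent, such matches occur in many promoters, and no binding was measured here.

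Most genes of proteins that work with these factors were lower in number 2 in the mean. Of 19 measured partner genes 16 were lower in number 2 in the mean, as were 11052 of all 19938 genes. Of the 16, 3 were called (2.93% of all genes were), and 0 partners were called higher, with a median of −0.38. Hoxa9, a homeodomain partner of MEIS1, fell by 1.49 log2 units (2.82-fold, limma adjusted p = 0.0271). The E protein gene Tcf4 fell by 0.95 (limma adjusted p = 0.0151), and Ldb1, the adaptor that links TAL1 and GATA complexes, fell by 0.59 (limma adjusted p = 0.0461). With either of the arrays numbered 1 left out, 0 of the 19 were called lower, against 12 without WT array 2 and 7 without Hif1a-/- array 2. Without WT array 2, and likewise without Hif1a-/- array 2, 1 partner was called higher (Aff1 and Pbx3, respectively). The remaining partners did not pass.

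Among the other partners of the enhancer network, Lmo2, the LIM adaptor, differed by −0.90 (SE 0.22, limma adjusted p = 0.0755), with 12.47 and 12.31 in number 1 and 11.80 and 11.18 in number 2. Fli1 and Lyl1, which bind with ERG and TAL1, differed by −0.38 and −0.44, the E protein genes Tcf3 and Tcf12 by −0.49 and −0.50, and the GATA cofactor gene Zfpm1 by −0.56. Cbfb, which encodes the subunit that stabilises RUNX1 on DNA, differed by 0.05, and Cbfa2t3, a corepressor of TAL1 complexes, by −0.05. Cbfa2t3 went opposite ways in the genotypes, −0.51 among WT arrays and 0.42 among the others. For MEIS1, the partner genes Pbx2, Pbx3 and Pknox1 differed by −0.18, 0.53 and −0.17. Pknox1 too went opposite ways, 0.07 among WT arrays and −0.41 among the others. For MLLT3, Dot1l, Aff1 and Aff4 of its elongation and methylation complexes differed by −0.30, 0.37 and −0.47. The GFI1 corepressor genes Kdm1a and Rcor1 differed by −0.27 and −0.13, with Rcor1 at 0.13 among WT arrays and −0.39 among the others. By genotype 0 of the 19 partners passed and 0 had an unadjusted p under 0.05. In the mean 16 were lower (9843 of all 19938 genes were), with a median of −0.14 log2 units.

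**Figure D3:**
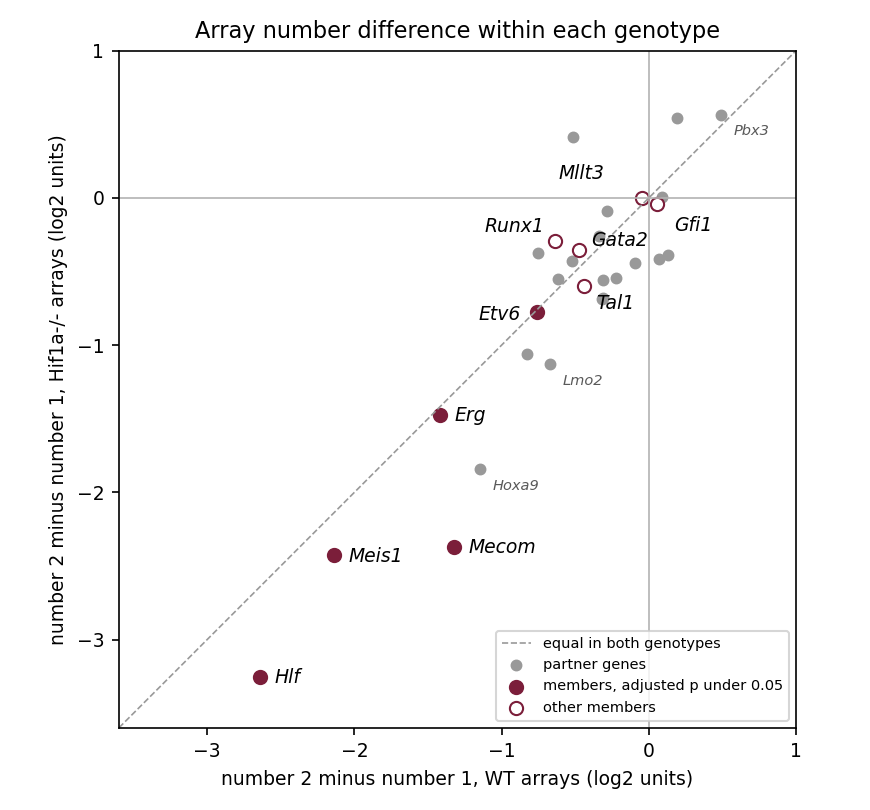
Log2 difference of number 2 minus number 1 among WT arrays (horizontal) and among arrays labelled Hif1a-/- (vertical), for the 10 genes (large points, filled where limma's adjusted p is under 0.05) and 19 partner genes (grey). Hlf, Meis1, Mecom and Erg lie far from 0 in both genotypes, and Mecom lies farthest below the dashed line of equal differences.

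Of the 12 measured paralogs of the 10 genes, 3 were called lower in number 2 and 0 higher, with a median of −0.32 log2 units. The shares over all genes were 2.93% and 3.81%. Dbp, a PAR bZIP relative of Hlf, fell by 0.75 (limma adjusted p = 0.0222), Prdm16, a relative of Mecom needed for HSC maintenance, by 0.65 (0.0445 in limma), and Runx3 by 0.67 (0.0417 in limma). Meis2 and Meis3 differed by −0.13 and −0.03, where Meis1 had fallen by 2.28. Gata1 and Gata3 were 0.44 and 0.11 higher in the mean and did not pass (limma adjusted p = 0.317 and 0.824). Without WT array 1, or without Hif1a-/- array 1, 0 paralogs were called, against 7 lower without WT array 2 and 4 lower and 1 higher (Gata1, limma adjusted p = 0.00179) without Hif1a-/- array 2.

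Other stem cell regulators were also mostly lower in number 2. Of 21 measured, 18 were lower in the mean (11052 of all 19938 genes were), with a median of −0.63 log2 units. Among them 8 were called lower and 0 of the 21 higher, beside 2.93% and 3.81% of all genes. Zbtb20, a zinc finger factor, fell by 1.54 (2.91-fold, limma adjusted p = 0.00569). Msi2, an RNA-binding protein of stem cell renewal, fell by 1.21 (2.32-fold, limma adjusted p = 0.00729). The immediate-early genes Nr4a1 and Egr1 were 0.66 and 0.38 higher in the mean without passing. The 8 calls were 1 without WT array 1 and 2 without Hif1a-/- array 1, against 16 without WT array 2 and 12 without Hif1a-/- array 2. Calls higher were 1 without WT array 2 and 3 without Hif1a-/- array 2. Some genes stand in several of these lists.

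Known targets of GATA2, TAL1, ERG and RUNX1 gave 4 of 17 called lower and 2 called higher in number 2, with a median of −0.65 log2 units. Beside this, 2.93% of all genes were called lower and 3.81% higher. Emcn, a sialomucin of HSCs and endothelium, fell by 2.81 (6.99-fold, limma adjusted p = 0.0112) and Kit by 1.06 (2.09-fold, limma adjusted p = 0.0121). The tetraspanin gene Cd9 rose by 1.46 (limma adjusted p = 0.00578), and Spi1, which encodes the myeloid factor PU.1, by 0.70 (0.0349 in limma). The calls lower were 1 without WT array 1 and 3 without Hif1a-/- array 1, against 15 without WT array 2 and 11 without Hif1a-/- array 2. With either of the arrays numbered 1 left out, 1 target was called higher.

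Genes repressed by GFI1 were called in both directions. Of 9 measured, 3 were called higher in number 2 and 1 lower (3.81% and 2.93% of all genes were), with a median of 0.33. Id2, an inhibitor of E proteins, rose by 2.89 log2 units (7.43-fold, limma adjusted p = 0.00430) and Irf8, a factor of monocytes and dendritic cells, by 1.66 (3.15-fold, limma adjusted p = 0.00873). Hoxa9 fell, as given above, and Il7r differed by −0.43 (limma adjusted p = 0.419). Both Id2 and Irf8 are also genes of mature cells. Without WT array 1 or Hif1a-/- array 1, 2 were called higher and 0 lower, and without WT array 2 there were 4 higher and 2 lower.

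Transcription factors of committed lineages were split by number. Of 21 measured, 6 were called higher in number 2 and 1 lower, with a median of 0.11 log2 units (3.81% of all genes were called higher). Beside Id2, Irf8 and Spi1, the called genes were Cebpe, Irf4 and Ikzf3 on the higher side, and Bcl11a, a factor of lymphoid-primed and stem cells, fell by 0.86 (limma adjusted p = 0.0143). Ikzf1 differed by −0.28 without passing. The calls higher were 3 without WT array 1, 2 without Hif1a-/- array 1 and 10 without Hif1a-/- array 2. The call lower was lost with either of the arrays numbered 1 left out, and there were 3 without Hif1a-/- array 2. By genotype 0 of these passed, with Lef1 1.18 and Pax5 0.99 higher in the mean in the arrays labelled Hif1a-/-. Of the 21, 13 were higher and 8 lower, with a median of 0.05 log2 units. Gata3 was 0.29 lower, and the lowest value of the list was −0.50.

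Markers of neutrophils, of mast cells, basophils and eosinophils, and of monocytes and dendritic cells moved with array number too, opposite to most of the stem cell factors. By the same rule 3.81% of all genes were called higher in number 2 and 2.93% lower. Of 12 neutrophil genes 9 were called higher in number 2 and 0 lower, with a median of 2.01 log2 units, among them Lcn2 (2.34) and Mmp8 (3.11). Elane, Mpo and Ctsg did not pass (limma adjusted p = 0.134, 0.488 and 0.0603). The rest of that list did, such as Camp and Ltf (0.0449 and 0.0394 in limma). Of 10 genes of mast cells, basophils and eosinophils 9 were called higher, with a median of 1.88, among them Fcer1a (8.01-fold higher) and Hdc (3.42-fold higher). Their mean log2 signals were 8.66 and 8.93 in number 1 and 10.73 and 10.75 in number 2. Of 9 monocyte and dendritic cell genes 6 were called higher, with a median of 1.46, among them Ccr2 (2.55) and Cd74 (2.10). On the other side, the 10 measured markers of the gate and of HSCs had a median of −0.68, with 3 called lower (Cd27, Kit and Flt3) and 0 higher. The SLAM family genes Cd48 and Slamf1 were 0.34 and 0.15 higher in the mean without passing. Over all 10 gate and HSC markers, the mean log2 signals were 10.53 and 10.37 in number 1 and 9.83 and 9.50 in number 2. The calls lower were 1 without WT array 1 and 2 without Hif1a-/- array 1, against 8 without WT array 2 and 7 without Hif1a-/- array 2, where 1 was called higher (Cd48, limma adjusted p = 0.0177).

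Some erythroid, T and NK cell markers were called by number, where 3.81% of all genes were called higher and 6.74% in either direction. Of 8 erythroid and megakaryocytic genes 1 was called higher (Epor, 0.55) and 1 lower (Car2, −0.86), and of 9 T and NK cell genes 2 were called higher (Cd8a, 0.90, and Ncr1, 1.90). The erythroid and megakaryocytic genes had a median of −0.24 by number, with 4 higher and 4 lower in the mean. The T and NK cell genes had a median of 0.33. Of 9 B lineage genes 0 were called by number in limma, and 0 had an unadjusted p under 0.05. In the mean 8 of the 9 were lower in number 2, with a median of −0.34. By genotype all 9 were higher in the mean in the arrays labelled Hif1a-/- (10095 of all 19938 genes were), with a median of 0.99. In limma 0 were called by genotype, and 6 had an unadjusted p under 0.05, beside 0.727% of all genes. No marker was at 0, as array signals have a background. The part of these other cells in the differences of the 10 genes was not tested. Without an array numbered 1 the calls higher became 3 for neutrophil genes (either array), 7 (WT array 1) or 9 for mast cell genes and 4 (either array) for monocyte genes. The erythroid, T and NK calls were then all lost. Without WT array 2 they became 2 higher and 4 lower for erythroid and megakaryocytic genes and 6 higher for T and NK cell genes, and without Hif1a-/- array 2 they became 3 and 2, and 4 higher and 1 lower.

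**Figure D4:**
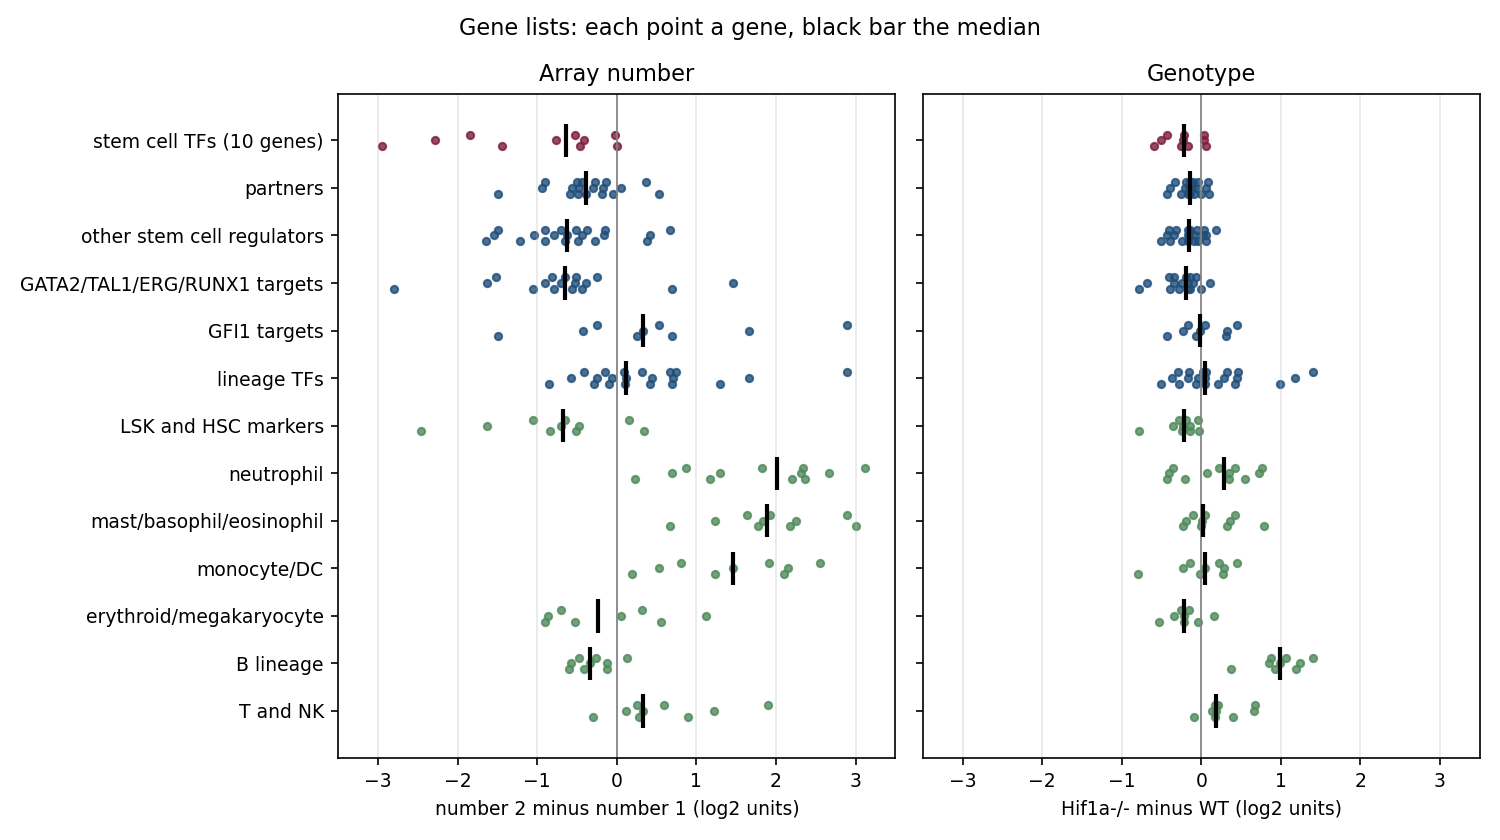
Log2 difference of each gene (point) in each list, by array number (left) and by genotype (right), with a black bar for the median of the list. By number the medians of the stem cell lists lie below 0 and all neutrophil, mast cell and monocyte genes above it, and by genotype the B lineage list stands to the right with a median of 0.99.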

How the data were processed

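The 4 arrays, 2 per genotype, are Affymetrix mouse gene arrays. Per the submitters' processing notes, the authors ran RMA (Expression Console 1.1), and what they deposited is signal on a log2 scale. RMA subtracts background and equalises the distributions of the arrays, so a change shared by all genes is removed. Log base 2 was taken from the range of the values. Their genome build was not given in the sources used here.

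Of 35556 probe sets 21789 had 1 gene symbol, 1621 had several and 12146 were unnamed here. The probe set with the highest mean was used per gene, which left 19938 genes, with no filter on dim ones. Groups came from the titles. Genotypes, and array numbers, were each compared by a two-sided limma fit (version 3.58.1, R 4.3.3, eBayes moderation, 2 residual degrees of freedom) without covariates. Calls used an adjusted p under 0.05 (Benjamini-Hochberg over all genes). The number of arrays limits precision. Median standard errors were 0.15 by genotype and 0.13 by number. The steps were tested on simulated data. Alternatives were a block, 3 other normalizations, a filter on the dimmest 40% of genes, probe sets averaged per gene, eBayes with trend and robust, each array left out and, added after seeing the data, every probe set with 1 symbol.

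The 10 genes, the 14 lists that include them, and the comparison of numbers were chosen with earlier results of these data known. Named were the 10 genes, all measured partners and Hif1a. From each other list, up to 2 genes per direction and comparison were picked by smallest p. Not all genes picked by that rule are named here, mainly on the genotype side. Further genes (Prdm16, Meis2, Cebpe, Irf4, Ikzf3, Flt3, Ctsg) were named after their values were seen.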

Additional observations from a re-analysis of the deposited data

Results flagged for a closer look

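Runx1 went opposite ways between the genotypes in the numbers. It was −0.14 log2 units in number 1 and 0.21 in number 2 (Hif1a-/- minus WT), a gap of 0.35 that was not tested, since each value compares single arrays.

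Gfi1 went opposite ways between the numbers in the genotypes, by 0.06 among WT arrays and −0.04 among those labelled Hif1a-/-. The gap of −0.10 was not tested either.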

How the results depend on the processing

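Between genotypes, 0 of the 10 genes and 0 of all genes passed in limma under every alternative run, with 39 to 622 genes at an unadjusted p under 0.05. The median over the 10 genes was −0.15 under quantile normalization and −0.13 under cyclic loess, and −0.54 to 0.20 with an array left out. Directions turned only with an array left out, where values ran from −2.13 to 1.12 for Hlf, −1.65 to 0.78 for Meis1, −1.78 to 0.59 for Mecom, −0.45 to 0.026 for Gata2, −0.53 to 0.064 for Tal1, −0.70 to 0.78 for Erg, −0.28 to 0.35 for Runx1 and −0.55 to 0.22 for Etv6. A genotype then holds a single number. Arrays of the same number deviated together (correlation 0.67 over genes), but 2 pairs cannot show that numbers pair the samples. With the replicate number as a block the values stay the same by construction, 0 genes passed (smallest adjusted p among the 10 genes 0.980) and 478 had an unadjusted p under 0.05, 2 of the 10 among them.

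Between numbers, 1344 genes passed (759 higher, 585 lower), 319 without WT array 1, 458 without array 1 labelled Hif1a-/-, 4661 without WT array 2 and 4602 without array 2 labelled Hif1a-/-. Of the 10 genes, 3 to 7 passed with an array left out, 4 under cyclic loess and 5 otherwise. Hlf, Meis1 and Erg passed in all 11 alternatives, with Hlf between −3.35 and −2.54. The median was −0.70 under quantile normalization, −0.62 under median centring and −0.76 to −0.56 with an array left out. Signs turned for Mllt3 under cyclic loess (0.019) and with an array left out (−0.064 to 0.016), and for Gfi1 with an array left out (−0.14 to 0.16). The cause was not tested. A group left with a single array was assumed to vary like the other.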
